A study of Mus musculus with 20 samples.

Results

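Cytosolic ribosomal protein genes were followed in mouse bone marrow-derived macrophages (BMDM), primary cells grown from bone marrow with M-CSF for 6 days. The genes were taken by name: a protein-coding gene of the table whose symbol starts with Rpl or Rps and a digit, or with Rplp, without the Rps6k kinases and without names of the -ps kind. This gave 82 of 14456 listed genes, of which 49 encode proteins of the large (60S) subunit and 32 proteins of the small (40S) subunit. The last one, Rps19bp1, fits the name but encodes a nucleolar protein that binds RPS19 and is no ribosomal protein. Rpsa, Fau and Rack1 encode cytosolic ribosomal proteins under other names and are given beside the 82.

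The BMDM came from wild-type male C57BL/6J mice, and every group held 4 libraries. The methods give the age of the mice as 8 weeks for the BMDM preparation and as 8 to 12 weeks for primary cells in general. In the glucose experiment, BMDM were cultured for 24 h in 25 mM glucose (high glucose) or in 5.5 mM glucose with 19.5 mM mannitol as the osmotic control (normal glucose). In the exosome experiment, naive BMDM received PBS, exosomes released by BMDM in normal glucose (BMDM-NG-exo) or exosomes released by BMDM in high glucose (BMDM-HG-exo) for 24 h, at 2000000000 particles per ml. The comparisons ask what a high glucose medium changes in the macrophages and what exosomes from such macrophages change in naive ones. All 12 macrophage marker genes looked up were listed, and none of 5 erythroid and none of 5 dendritic and mast cell markers were. Total RNA depleted of ribosomal sequences was sequenced with strand kept, to between 34016445 and 56310712 counted reads per library.

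Ribosomal protein genes supply the protein part of the ribosome in near-equal numbers of molecules, and their mRNAs are among the most abundant of any growing cell. Most of these mRNAs begin with a 5′ terminal oligopyrimidine (TOP) tract, through which the TOR kinase pathway governs how well they are translated. Their introns often carry small nucleolar RNAs (snoRNAs), and the genome holds many processed copies of them, so that reads of a gene and of its copies can be hard to tell apart.

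Some short sequences were more frequent around the transcription starts of these genes than around those of all genes. Each was still absent from most of the windows examined. RefSeq (GRCm38.p6) gave a window from 250 bases before to 50 bases after the start for 62 of the 82 genes. A run of at least 8 bases that are C or T, within 5 bases of the annotated start on the gene's own strand, was present in 21 of these 62 windows (33.9%) and in 9.3% of the windows of all 27025 genes. The stretches below show the run in capitals for some of the genes that hold it, in rising order of their p-values in the glucose comparison. Each stretch takes 15 bases before the start and 15 from it.
Rpl7a, chr2:26910792-26910821, plus strand: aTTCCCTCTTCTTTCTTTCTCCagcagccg
Rpl28, chr7:4792950-4792979, plus strand: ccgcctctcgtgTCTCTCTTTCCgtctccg
Rplp2, chr7:141447636-141447665, plus strand: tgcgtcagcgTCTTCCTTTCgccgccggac
Rps6, chr4:86857353-86857382, minus strand: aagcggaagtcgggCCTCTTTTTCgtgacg
Rpl18, chr7:45718056-45718085, plus strand: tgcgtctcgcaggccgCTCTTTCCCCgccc
Rpl27a, chr7:109519180-109519209, plus strand: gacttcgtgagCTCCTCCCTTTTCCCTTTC
Rps27, chr3:90213634-90213663, minus strand: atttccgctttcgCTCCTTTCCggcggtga
Rps24, chr14:24490663-24490692, plus strand: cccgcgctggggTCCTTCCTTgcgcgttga

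The letters CCGGAAG, which contain the core bound by ETS factors, stood on either strand in 23 of the 62 windows (37.1%), against 9.12% of all genes. They are in capitals in these stretches upstream of the start, which come from some of the genes that hold them, in the same order of p-values.
Rplp2, chr7:141447532-141447561, plus strand: gaaatgtcttcCTTCCGGtgcacccttttc
Rps6, chr4:86857440-86857469, minus strand: ttaatctacgcCCGGAAGtaacgcccctct
Rpl27a, chr7:109519015-109519044, plus strand: agctaccggggCTTCCGGgggcgggcgcca
Rpl37, chr15:5116579-5116608, plus strand: accaagacccgCCGGAAGtagtttcctggg
Rps25, chr9:44407630-44407659, plus strand: cacccattgccCCGGAAGtactctctcgag

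CTTTCC occurred on either strand in 48.4% of the windows of the ribosomal protein genes and in 26.3% of all windows, and TATAAA in 9.68% and 14.2%. Among the genes with a window, the pyrimidine run was found in 9 of the 32 that were called higher in high glucose and in 12 of the other 30. CCGGAAG was found in 11 and 12 of them. A match of letters is a description of the window and not a site, and some RefSeq starts may lie off the main start of these cells.

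At the level of the whole set, the 82 genes took 1.81% to 1.99% of all counted reads, with 95% Wilson intervals no wider than 0.00919 percentage points, which cover counting error only. Of the reads on protein-coding genes they took 2.40% to 2.61% in normal glucose and 2.58% to 2.68% in high glucose. The ranges overlapped through 1 library: normal glucose 6 stood at 2.61%, above the others of its group at 2.40%, 2.48% and 2.51%. In the exosome experiment the share was 2.49% to 2.64% with PBS, 2.57% to 2.75% with BMDM-NG-exo and 2.56% to 2.67% with BMDM-HG-exo. These 3 ranges overlapped widely. Of all counted reads the share was 1.868% to 1.906% with PBS, 1.904% to 1.988% with BMDM-NG-exo and 1.897% to 1.983% with BMDM-HG-exo. By that measure PBS overlapped the exosome groups only through PBS 1. No difference in share was tested.

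**Figure D1:**
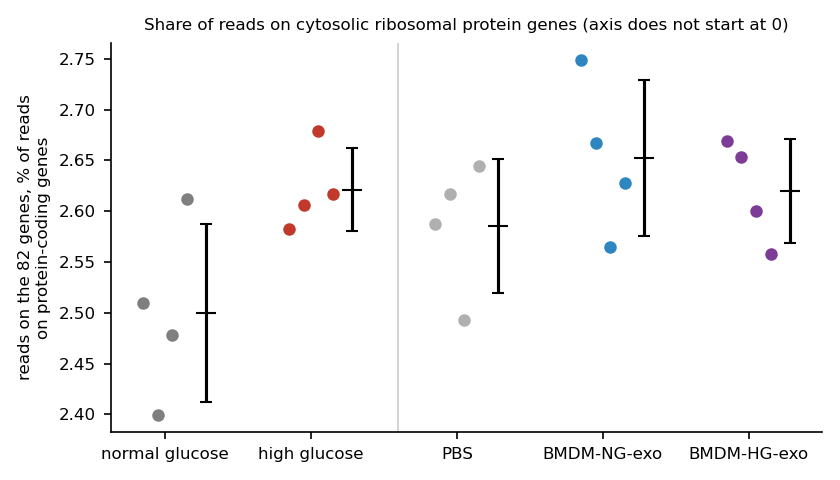
Reads on the 82 genes as percent of the reads on protein-coding genes (vertical axis, which does not start at 0) in each library of the 5 groups, with the group mean and SD (n = 4) as black bars. Normal glucose holds the lowest library, at 2.40%, and BMDM-NG-exo the highest, at 2.75%.

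Levels differed far more between genes than between groups. Per kilobase of merged exons, the acidic stalk protein gene Rplp1 had the highest level, with a mean of 39174 normalized counts per kb over the 20 libraries. It was followed by Rplp0, the anchor of the same stalk, at 21903, and by Rps23, which sits in the decoding centre, at 20286. The lowest were Rpl24, a protein at the subunit interface, at 27.1 per kb, Rps27rt, a retrogene copy of Rps27, at 61.0, and Rpl13a at 292. When only the 76 genes averaging 1000 normalized counts or more were ranked, the highest level per kb was 57.8 times the lowest. The merged exons also hold UTRs and retained introns that differ between genes, so these levels rank the deposited values and not molecules.

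Of these low genes, Rpl24 shared 80.1% of its 100-base words with transcripts of other genes, and 47% of its exonic bases overlapped another gene on the same strand. Its level, 11.4 to 53.3 normalized counts over all libraries, is therefore uncertain. For Rps27rt the share of words was 89.5%, and its coding sequence equals that of Rps27 in all 255 bases. A pair that cannot be told apart by coding reads and a diverged one are shown by the first 90 coding bases of Rps27, which are also those of Rps27rt, and of the paralog Rps27l, with the 24 bases of Rps27l that differ in capitals (GENCODE M21 transcripts).
Rps27 and Rps27rt: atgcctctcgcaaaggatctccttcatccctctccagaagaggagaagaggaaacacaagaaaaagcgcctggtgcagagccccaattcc
Rps27l: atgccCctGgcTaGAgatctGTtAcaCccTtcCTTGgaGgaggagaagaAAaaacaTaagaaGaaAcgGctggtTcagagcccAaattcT

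In all, 21 of the 82 genes shared over 50% of their words with other transcripts and 6 shared none. How multi-mapping reads were treated in these values is not given in the sources used here.

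The levels were steady within groups. The coefficient of variation within a group, averaged over the 5 groups, had a median of 4.51% over the genes and was under 10% for 77 of 82. It was highest for Rpl24 (38.1%) and Rps27rt (34.9%), the genes with the fewest reads. When the 5 group means of each gene were ordered, the lowest was that of normal glucose for 64 of 82 genes, and the highest was that of BMDM-NG-exo for 37 and of high glucose for 20. The glucose and exosome libraries belong to separate experiments, so this order across them was not tested.

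High glucose was compared with normal glucose first. Ribosomal protein mRNAs were slightly and broadly higher in high glucose: 43 of the 82 genes rose and 0 fell (limma with trend, Benjamini-Hochberg adjusted p under 0.05), where 7.74% of all 14425 tested genes rose and 5.53% fell. Leaving out Rps19bp1, which is no ribosomal protein gene, 42 of 81 rose and 0 fell. Without the trend of the variance, limma called 0 of the 82, and 2 other scalings left 15 and 16 higher. The median log2 fold change was 0.13, a rise of 9.79%, against -0.0031 over all tested genes. Of the 82 values 76 were above 0, beside 7094 of all 14425 tested genes. Groups did not overlap for 34 genes, all higher in high glucose, with a background of 9.18% of tested genes higher and 7.11% lower. In bulk RNA, a change of the cell mixture and a change per cell cannot be told apart.

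The count of 43 depended on how the spread between libraries was modelled and on the scaling. Without the trend of the variance with expression, the smallest limma adjusted p of the 82 genes was 0.051, for Rps3. In that fit 36 of them had an unadjusted p under 0.05, beside 3152 of all 14425 genes, and 654 genes were called in all. edgeR called 37 of the 82 and DESeq2 39. Quantile normalization left 15 higher and 1 lower, the last being Rpl21 at -0.09, and scaling by the reads on protein-coding genes outside the set left 16 higher and 0 lower. Those scalings also changed the balance over all genes, from 1116 higher and 798 lower to 779 and 876 under quantile normalization and to 673 and 1308 under the scaling by protein-coding reads. The median of the 82 log2 fold changes stayed above 0 in each, at 0.09 in both.

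**Figure D2:**
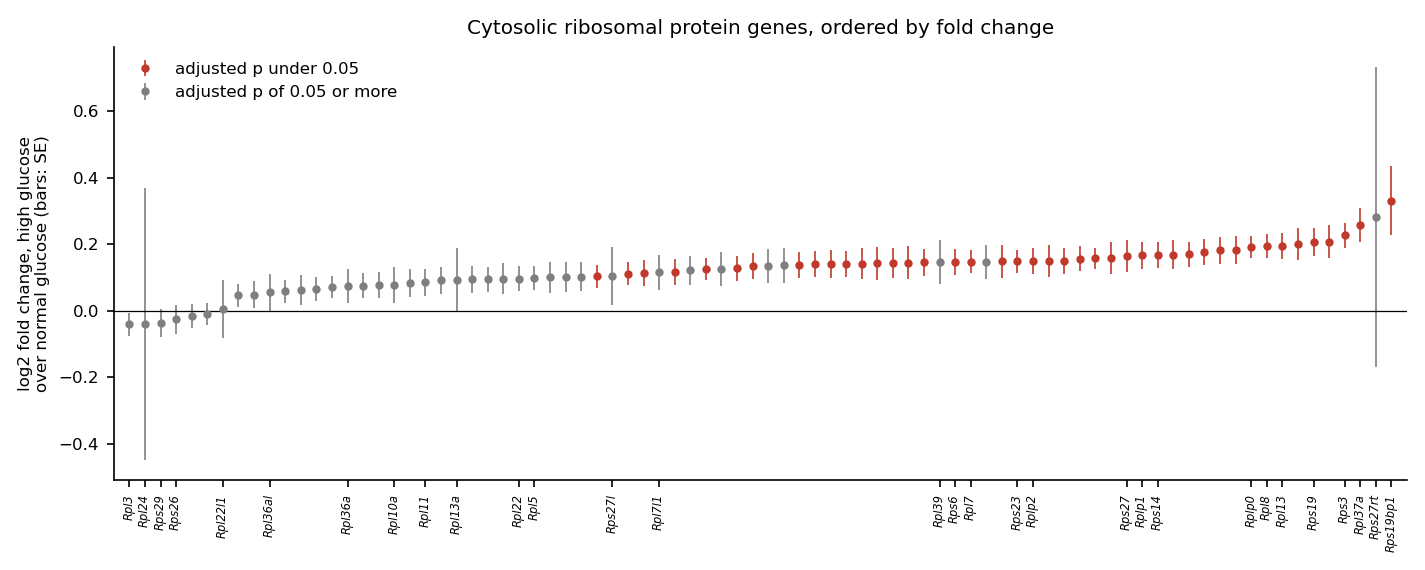
Log2 fold change of high glucose over normal glucose (vertical axis, bars are standard errors, 4 libraries per group) for each of the 82 genes in rising order, with names under the genes named by rule, red where the adjusted p was under 0.05. Values run from -0.04 to 0.33, with 76 above 0, and wide bars mark Rpl24 and Rps27rt, which have few reads.

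The rise was seen in both subunits. In the large subunit 24 of 49 genes rose (median log2 fold change 0.13), and in the small subunit 18 of 32 (median 0.14). Among the 29 genes that hold snoRNA genes in their introns 13 rose (median 0.12), and among the other 53 it was 30 (median 0.14). Genes with over 50% of their words shared gave 8 of 21 (median 0.10), and the others 35 of 61 (median 0.14). Of 48 ribosomal protein pseudogenes in the table, 0 were called by limma, 1 had an unadjusted p under 0.05 on the higher and 2 on the lower side, DESeq2 called 0, and edgeR called 0 higher and 1 lower. The median of the pseudogenes was 0.07, with a median 95% half-width of 0.71, so that a change the size of the median of the 82 genes lies well inside the interval of a typical pseudogene. The genes are short, with a median merged exonic length of 1754.5 bases against 4504 for all listed protein-coding genes. Of 246 other protein-coding genes under 1000 bases, 18 rose and 10 fell, with a median log2 fold change of -0.01.

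Rps3 had the smallest p-value. It encodes a 40S protein at the mRNA entry channel that also has a role in DNA repair. Its normalized counts were 12783, 12318, 12660 and 13911 in normal glucose, against 14874, 14728, 15303 and 15477 in high glucose. Every high glucose library lay above every normal glucose library. The log2 fold change was 0.23 ± 0.04 (SE, 95% interval 0.15 to 0.30), with a limma adjusted p of 2.58e-05.

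The 3 genes of the ribosomal stalk, which recruits the translation factors that use GTP, were all called higher in high glucose. Rplp0, the gene of the stalk base, had 32665, 29826, 31824 and 32615 normalized counts in normal glucose. In high glucose it had 36622, 36242, 36032 and 35903, with no overlap. Its log2 fold change was 0.19 ± 0.03 (SE), with a limma adjusted p of 5.77e-05. The P1 and P2 proteins bind to it in pairs. For Rplp1 the groups overlapped, at 15988 to 19404 against 19039 to 19775, through normal glucose 1. For Rplp2 they did not, at 15148 to 18016 against 18320 to 19062. Their log2 fold changes were 0.17 (limma adjusted p 0.00402) and 0.15 (limma adjusted p 0.00845). Without normal glucose 3, Rplp2 was no longer called (limma adjusted p 0.057). Under quantile normalization neither Rplp1 nor Rplp2 was called, and under the scaling by protein-coding reads Rplp2 was not.

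The other genes among the 5 with the smallest p-values belong to the 60S subunit. Rpl8 encodes a protein next to the peptidyl transferase centre. It had 17993, 16750, 18159 and 19412 normalized counts in normal glucose against 20726, 20502, 20903 and 20460 in high glucose, a log2 fold change of 0.19 (limma adjusted p 0.000209). The groups were apart, and the 4 high glucose libraries were close together. Rpl37a, a small zinc-binding protein gene, had 5116, 4168, 4590 and 5176 against 5391, 5680, 5731 and 5893, the largest called change of a ribosomal protein gene in this comparison at 0.26 ± 0.05 (SE, limma adjusted p 0.000375). Rpl13 had 12317, 10846, 12305 and 12532 against 13695, 13977, 13882 and 13321, with no overlap. Its log2 fold change was 0.20 (limma adjusted p 0.000476), and normal glucose 3 lay far below the other libraries of its group.

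Members known from disease and signalling followed. Rps19, the gene most often mutated in Diamond-Blackfan anaemia, had 8233 to 9492 normalized counts in normal glucose and 9745 to 11098 in high glucose, a log2 fold change of 0.21 (limma adjusted p 0.000665). Rps14, lost in the 5q- syndrome, had 7074 to 7621 against 7926 to 8507, a log2 fold change of 0.17 (limma adjusted p 0.00212). Rps6, the 40S protein phosphorylated by S6 kinases downstream of TOR, had 8110, 7171, 7907 and 7842 against 8427, 8632, 8514 and 8740. Its log2 fold change was 0.15 (limma adjusted p 0.00903), again with the groups apart. Without normal glucose 3 its limma adjusted p was 0.0515. Rps23 (0.15, limma adjusted p 0.00245) and Rpl7 (0.15, limma adjusted p 0.00274) also rose without overlap of the groups.

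Rpl5 and Rpl11 form the 5S ribonucleoprotein that can bind and hold back MDM2, the ligase of p53. Neither passed the threshold: Rpl5 had 12575 to 13636 normalized counts in normal glucose and 13204 to 14526 in high glucose, with a log2 fold change of 0.10 (limma adjusted p 0.0701). Rpl11 had 6935 to 7740 against 7523 to 8300, at 0.08 (limma adjusted p 0.181). Rpl10a was at 0.08 (limma adjusted p 0.383). Rpl13a, whose protein leaves the ribosome in interferon-treated myeloid cells to silence a set of mRNAs, was at 0.09 with a 95% interval of -0.10 to 0.28. Its low level and the 35.4% of its exonic bases that another gene overlaps on the same strand limit that value.

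The genes at the low end were Rpl3, Rpl24 and Rps29, none of which passed the test. Rpl3, which reaches into the peptidyl transferase centre, had 19330, 18552, 18570 and 19703 normalized counts in normal glucose, against 17876, 18561, 19637 and 17968 in high glucose. The groups overlapped, and the log2 fold change was -0.04 with a 95% interval of -0.11 to 0.03. Rps29, a zinc-binding 40S protein gene, was also at -0.04, with a 95% interval of -0.12 to 0.05. For Rpl24 the interval of -0.87 to 0.79 leaves the direction unknown.

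The paralogs were compared with their partners, each by its own test, while the difference between partners was not tested. Rps27 rose (log2 fold change 0.17, limma adjusted p 0.0165), whereas Rps27l, which p53 can induce, was at 0.10 (limma adjusted p 0.503) and Rps27rt at 0.28 with a 95% interval of -0.64 to 1.2. Rpl7 rose, and its relative Rpl7l1 was at 0.12 (limma adjusted p 0.151). Rpl22 was at 0.10 (limma adjusted p 0.0869) with the groups apart, and Rpl22l1, whose level Rpl22 is known to hold down, at 0.00. Rpl36a was at 0.07 (limma adjusted p 0.387) and Rpl36al at 0.06 (limma adjusted p 0.585). Rps19bp1 had the largest fold change of all 82, at 0.33 ± 0.10 (SE, limma adjusted p 0.0287). It had 478, 488, 421 and 490 normalized counts against 638, 650, 636 and 457, so that high glucose 6 lay inside the normal glucose range. Its limma adjusted p was 0.0961, 0.116 and 0.102 without high glucose 1, 2 and 4 in turn, and 0.113 without normal glucose 5. That of Rps27 was 0.0811 and 0.0686 without normal glucose 3 and 5, and 0.0534 without high glucose 4.

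**Figure D3:**
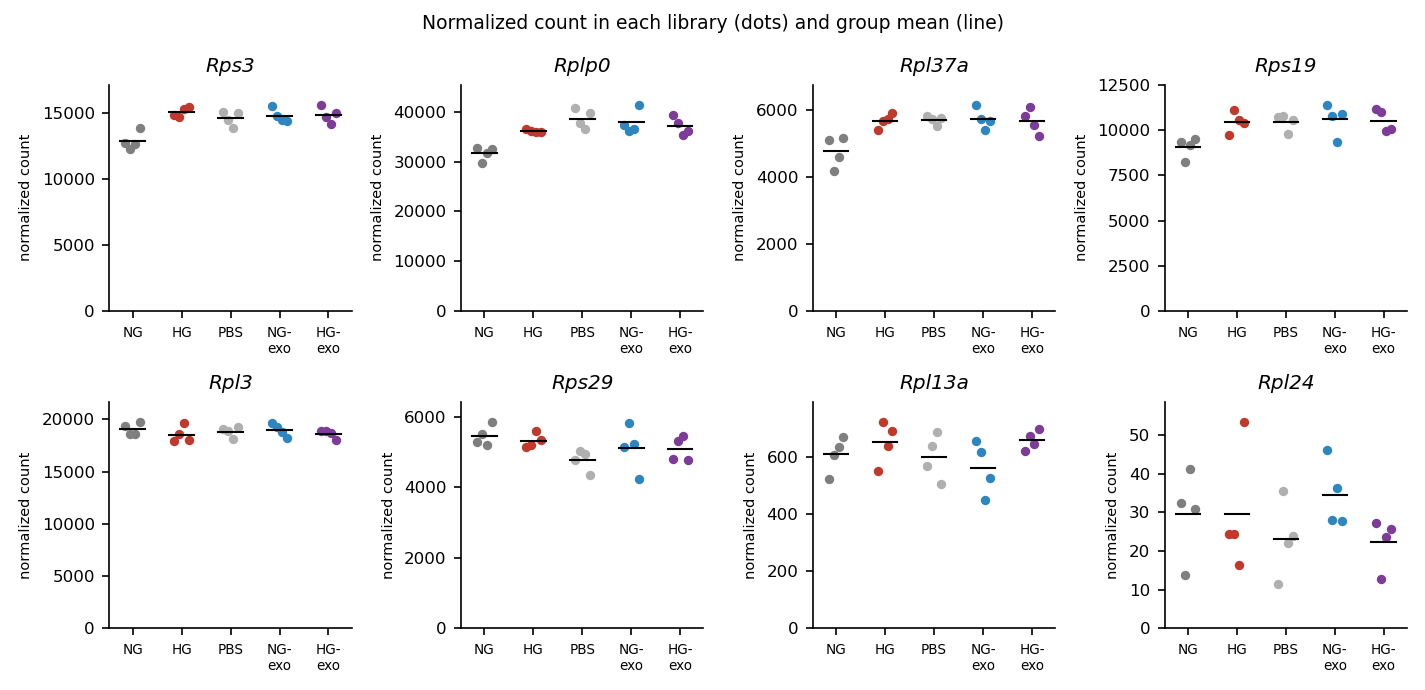
Normalized counts (vertical axes, from 0) of 8 genes in each of the 20 libraries, as dots, with group means as lines. NG and HG are normal and high glucose, NG-exo and HG-exo are BMDM-NG-exo and BMDM-HG-exo. Rps3, Rplp0, Rpl37a and Rps19 lie lower in normal glucose than in high glucose without overlap, and Rpl3, Rps29, Rpl13a and Rpl24 overlap.

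Other genes of the translation machinery were counted in the same fit, beside the 7.74% of all tested genes that rose and the 5.53% that fell. Rpsa, Fau and Rack1, the ribosomal protein genes with other names, rose. Rpsa, the 40S protein also known as laminin receptor, had a mean of 40837 ± 1695 normalized counts (SD, n = 4) in normal glucose and 45988 ± 693 in high glucose, a log2 fold change of 0.17 (limma adjusted p 0.000235). Of 12 genes of elongation factors and other TOP mRNAs 4 rose and 0 fell, led by the exchange factor gene Eef1b2 (0.16, limma adjusted p 0.0023). Of 34 initiation factor genes 9 rose and 0 fell, led by Eif3b (0.24, limma adjusted p 2.31e-05). Of 40 ribosome biogenesis genes 6 rose and 0 fell, led by Nolc1 of the nucleolus (0.37, limma adjusted p 0.000166).

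In the mitochondrial ribosome, which is built from separate genes, 2 of 48 large subunit genes rose, led by Mrpl12 (0.26, limma adjusted p 0.0148). Of 29 small subunit genes only Mrps6 rose (0.96, limma adjusted p 2.71e-08), and 0 fell in either list. The share of risen genes in both mitochondrial lists was below that of all tested genes. The lists of the TOR pathway and TOP mRNA control moved both ways, with 2 of 20 higher, led by the kinase gene Rps6ka1 (0.21, limma adjusted p 0.000571), and 3 lower, led by the TOR inhibitor gene Sesn1 (-0.27, limma adjusted p 3.62e-05). Of 11 genes of ribosomal protein chaperones and import 0 rose and 1 fell, the importin gene Ipo5 (-0.14, limma adjusted p 0.0171). Of 15 measured genes of ribosome quality control and nucleolar stress, Mdm2 rose (0.13, limma adjusted p 0.019) and Cdkn1a fell (-0.15, limma adjusted p 0.0442). Median log2 fold changes were 0.08 for the elongation and TOP list, 0.07 for initiation, 0.11 for biogenesis, 0.06 and 0.05 for the mitochondrial subunits, and -0.04 for the TOR list.

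Single libraries bore on the count of 43 too. Without normal glucose 3, 24 genes were called, and without high glucose 4, 25. The median log2 fold change without normal glucose 3 was 0.09. Normal glucose 3 held the lowest value of its group for 57 of the 82 genes and normal glucose 6 the highest for 56. In high glucose, library 4 held the highest value for 46. Normal glucose 3 also had the lowest share of reads on Gm23935, an abundant noncoding RNA gene, at 8.78% against 10.8% to 12.7% in the other 7 libraries of the experiment, and the highest share on mitochondrial protein-coding genes, at 0.767% against 0.582% to 0.69%. The part of these differences in the result was not tested. When each of the 8 libraries was left out in turn, 20 of the 43 genes were called every time, among them Rps3, Rplp0, Rplp1, Rpl8, Rpl37a, Rpl13, Rps19, Rps14, Rps23 and Rpl7. Under quantile normalization, protein-coding scaling, edgeR and DESeq2 together, 11 of the 43 were called each time.

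Macrophage markers differed between the glucose groups in both directions, with Csf1r higher (log2 fold change 0.35) and Mrc1 lower (-0.47) in high glucose. The summed level of the 12 genes was 676250 to 755731 normalized counts in normal glucose and 860100 to 928612 in high glucose, with 4 genes higher and 3 lower. Of 8 neutrophil and granulocyte precursor markers 4 were listed, summing to 173 to 270 and 154 to 202, and of 6 T and B cell markers 1 was listed, at 32.1 to 57.6 and 17.4 to 50.5. Of 5 stromal and endothelial markers 3 were listed, summing to 357 to 429 and 385 to 606. The part of the cell mixture in the rise of the ribosomal protein genes was not tested.

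**Figure D4:**
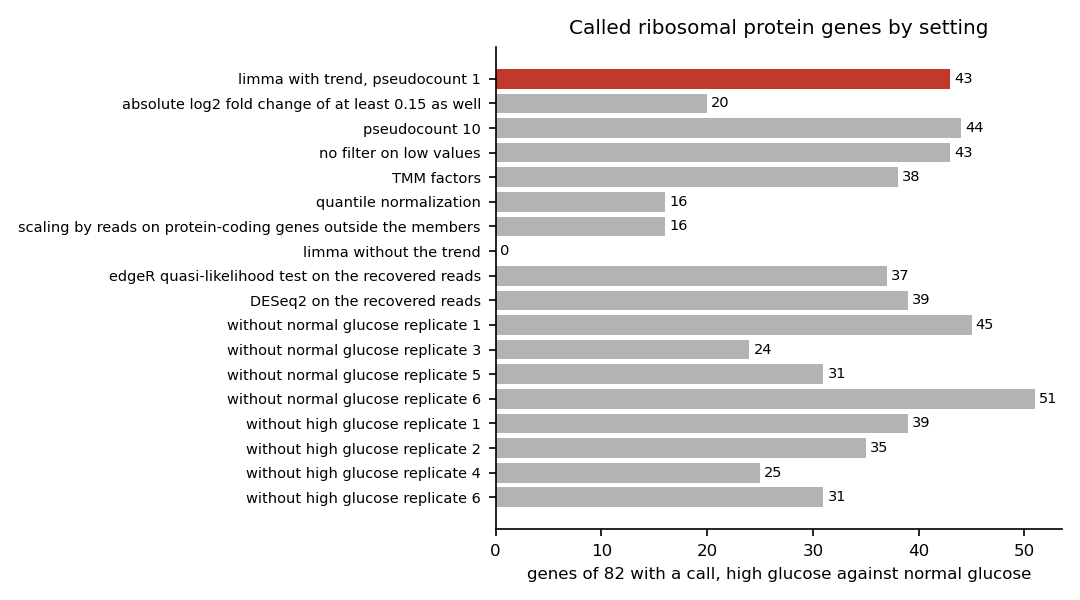
Number of the 82 genes called between high and normal glucose (horizontal axis) under each setting drawn, with the reported fit in red at 43. The fit with a block for replicate numbers, which called 1 gene, is not drawn. The bars run from 0 without the variance trend to 51 without normal glucose replicate 6.

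In the exosome experiment no ribosomal protein gene was called. For BMDM-HG-exo against BMDM-NG-exo, limma called 0 of 82 at an adjusted p under 0.05 with a log2 fold change of 0.15 or more in either direction, where it called 0.0139% of all 14413 tested genes. At an unadjusted limma p under 0.05 there were 3 higher and 6 lower, beside 448 and 494 of all 14413 genes. Both edgeR and DESeq2 called 0 of the 82. The median log2 fold change was -0.03, a fall of 1.76%, with a median 95% half-width of 0.09 per gene. Without BMDM-NG-exo 1 the median was 0.00031. Groups did not overlap for 0 genes on the higher and 2 on the lower side, beside 1.86% and 2.01% of all genes. These 2 were Rpl24 and Rpl15.

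Rpl15, a large subunit protein gene, had the smallest adjusted p of the 82 in this comparison, 0.583 by limma. It had 4140, 3720, 3864 and 3858 normalized counts with BMDM-NG-exo and 3442, 3628, 3644 and 3566 with BMDM-HG-exo, a log2 fold change of -0.13 ± 0.04 (SE). With PBS it had 3559, 3713, 3556 and 3655, close to BMDM-HG-exo. Rpl15 was named after its values were seen.

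The highest fold changes between the exosome types were those of Rpl22l1 at 0.25, with a 95% interval of 0.06 to 0.43, of Rpl13a at 0.24 (0.03 to 0.46) and of Rps26 at 0.13 (0.02 to 0.24). Rpl22l1 had 536, 665, 560 and 572 normalized counts with BMDM-NG-exo and 785, 659, 641 and 682 with BMDM-HG-exo, which overlap through BMDM-NG-exo 2. Rpl13a had 658, 617, 450 and 526 against 622, 674, 647 and 697. Their limma adjusted p-values were 0.621 and 0.698, and that of Rps26 was 0.635. The lowest fold changes were those of the low genes Rpl24 (-0.63, 95% interval -1.49 to 0.22) and Rps27rt (-0.45, -1.33 to 0.43), and of Rpl39, a protein in the wall of the exit tunnel (-0.16, -0.34 to 0.02).

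BMDM-HG-exo against PBS gave 0 called members of 82 by limma (4.84% of all genes), and 0 by edgeR and by DESeq2. At an unadjusted limma p under 0.05, 4 members were higher and 0 lower, beside 1131 and 1298 of all 14413 genes. The median log2 fold change was 0.02, and -0.00031 without PBS 3. Values did not overlap for 2 genes on the higher side, Rpl21 and Rpl22l1, and for 0 on the lower, beside 4.41% and 5.59% of all genes. The smallest adjusted p was that of Rpl27a, at 0.106 by limma, with 6807, 7579, 7067 and 7752 normalized counts with PBS and 7727, 8210, 7827 and 7861 with BMDM-HG-exo. Its log2 fold change was 0.12 ± 0.04 (SE), with an overlap through PBS 4. Rpl21 and Rpl27a were named after their values were seen.

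BMDM-NG-exo against PBS gave 0 called members by limma (3% of all genes), and 0 by edgeR and by DESeq2. At an unadjusted limma p under 0.05, 16 members were higher and 2 lower, beside 897 and 1050 of all 14413 genes. The median log2 fold change was 0.03, and 62 of 82 values were above 0, beside 7437 of all 14413 genes. The median was 0.012 without PBS 3 and 0.014 without BMDM-NG-exo 1. Values did not overlap for Rpl15 and Rps13 on the higher side and Rpl7l1 on the lower, beside 3.64% and 4.63% of all genes. Rpl31, of the exit tunnel rim, had the smallest limma adjusted p, 0.0652, with 5686, 6040, 5539 and 6408 normalized counts with PBS and 7920, 6736, 6062 and 6414 with BMDM-NG-exo. By limma, Rpl31 passed the threshold without BMDM-NG-exo 3 (adjusted p 0.0157), without PBS 4 (adjusted p 0.0358) and with a pseudocount of 10 (adjusted p 0.0474). Rpl27a passed it without PBS 4 (limma adjusted p 0.0392). Without BMDM-NG-exo 4, Rpl38 was called instead (limma adjusted p 0.0379). Rpl31, Rpl38 and Rps13 were named after their values were seen.

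Against PBS and BMDM-NG-exo combined, BMDM-HG-exo gave 0 called members by limma (0.201% of all genes), and 0 by edgeR and DESeq2. At an unadjusted limma p under 0.05, 1 member was higher and 1 lower, beside 674 and 837 of all 14413 genes. The median log2 fold change was -0.01, and 0.0027 without BMDM-HG-exo 4 or 0.0052 without BMDM-NG-exo 1. Rpl22l1 had the smallest adjusted p, 0.269 by limma, at 0.22 ± 0.08 (SE). Its level with BMDM-HG-exo was 692 ± 64.4 normalized counts (SD, n = 4), against 594 ± 43.4 over the 8 controls. The comparisons within this experiment share libraries, so their values stand side by side and are no independent support of each other.

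**Figure D5:**
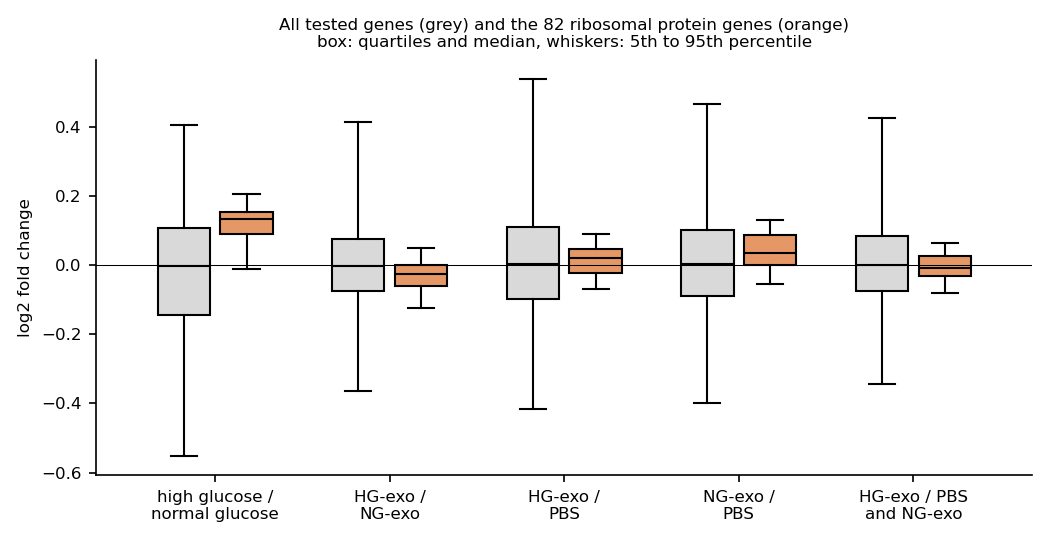
Log2 fold changes (vertical axis) of all tested genes in grey and of the 82 genes in orange in the 5 comparisons, as boxes of median and quartiles with whiskers from the 5th to the 95th percentile. The orange median is at 0.13 in the glucose comparison and between -0.03 and 0.03 in the others.

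Genes that led the glucose comparison had overlapping ranges in the exosome groups. Rps3 had 13887 to 15100 normalized counts with PBS, 14441 to 15558 with BMDM-NG-exo and 14213 to 15622 with BMDM-HG-exo, and the log2 fold change between the exosome types was 0.01, with a 95% interval of -0.07 to 0.08. Rplp0 had 36517 to 40783, 36175 to 41367 and 35427 to 39401, with an interval of -0.10 to 0.05. Rpl37a had 5509 to 5831, 5409 to 6143 and 5233 to 6080, and Rps19 had 9778 to 10770, 9312 to 11378 and 9931 to 11136. All these ranges overlapped. Whether the glucose effect and the exosome effect differ was not tested, since the experiments were fitted apart. Of the neighbouring lists, 0 of 12 elongation and TOP genes and 0 of 34 initiation factor genes were called, and neither were Rpsa, Fau or Rack1, in any of the 4 exosome comparisons. Against PBS the importin gene Ipo5 rose with both exosome types (0.30 with BMDM-HG-exo and 0.28 with BMDM-NG-exo, limma adjusted p 7.57e-06 and 3.18e-05), as did the ribotoxic stress kinase gene Map3k20 (0.20 in both, limma adjusted p 0.0166 and 0.0289). With BMDM-HG-exo the biogenesis gene Tcof1 fell (-0.17, limma adjusted p 0.0177), and with BMDM-NG-exo Rps6ka1 (-0.18, limma adjusted p 0.0189) and Gtpbp2 (-0.20, limma adjusted p 0.0138) fell. Of the 48 mitochondrial large subunit genes, 2 were called with BMDM-HG-exo and 1 with BMDM-NG-exo, shares below the 4.84% and 3% of all genes (Mrpl52 at -0.34, Mrpl54 at -0.42 and Mrpl57 at 0.32, limma adjusted p 0.00553, 0.00326 and 0.0442). These genes outside the set of 82 were named after their values were seen. The macrophage marker sum was 848988 to 900803 with PBS, 760578 to 823819 with BMDM-NG-exo and 780364 to 805213 with BMDM-HG-exo, with 7 of 12 markers lower with either exosome type than with PBS. The part of that difference in the exosome values of the ribosomal protein genes was not tested.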

How the data were processed

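Long RNA libraries of BMDM were analysed, 4 in each of 5 groups. The authors mapped 2 × 100-base reads with STAR 2.5.3a to GRCm38, counted them per gene with FeatureCounts 2.0.1 and tested them with DESeq2 1.20.0. The deposited signal is the count divided by the DESeq2 size factor of the library. Whole reads were recovered from the steps of the values in 20 libraries, with 2 steps within 1% of 1. The annotation used for counting is not given in the sources used here. GENCODE M21 gave names, types and coordinates for 14421 of 14456 genes, and the smallest median of a listed gene is 11 reads.

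Log2 of the normalized count plus 1 was fitted with limma 3.58.1 (lmFit, eBayes with trend) in R 4.3.3 for genes averaging 10 or more, two-sided, with Benjamini-Hochberg adjustment, for 8 glucose and 12 exosome libraries apart. Genes with an adjusted p under 0.05 were called, and for exosomes a log2 fold change of 0.15 or more in either direction was needed too. Log2 fold changes understate those of low genes. Alternatives were a pseudocount of 10, no filter, TMM, quantile and protein-coding scaling, no trend, edgeR 4.0.16 and DESeq2 1.42.0 on the recovered reads, a block and each library left out. The scripts were tested on simulated data.

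Named genes were, per comparison, the 5 called with the smallest adjusted p in each direction, the 3 highest and 3 lowest fold changes of the glucose and exosome type comparisons, the 3 highest and lowest levels per kb, and fixed genes and paralogs. The members and lists were chosen with earlier results of these data known. The 3 protein-coding genes named -ps and a number were left out by the naming rule. Each exosome library came from its own exosome preparation, but separate mice per library are not stated, so p-values measure the spread between these libraries. Exosome libraries share 4 dates across groups in the labels. The correlation of the deviations from group means averaged 0.012 over 12 same-date pairs and -0.004 over 36 others.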

Additional observations from a re-analysis of the deposited data

Results flagged for a closer look

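In 155 groups of 4 libraries, 5 held a library far from the other 3 (Dixon's test at 95%), where chance gives about 1 in 20. Rpl13 in normal glucose had 10846 normalized counts in library 3, against 12305, 12317 and 12532 in the others. Rps19bp1 in high glucose had 457 in library 6, against 636, 638 and 650. Rps27l in high glucose had 634 in library 2, against 734, 738 and 748. Rplp1 with PBS had 17842 in library 3, against 20929, 20957 and 21380. The share of all counted reads on the 82 genes was 1.94% in normal glucose 6, against 1.81%, 1.82% and 1.82% in the other libraries of that group.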

How the results depend on the processing

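Of the 82 genes, 43 were called in the glucose comparison. That became 20 when the log2 fold change also had to reach 0.15, 16 with quantile normalization, 16 with protein-coding scaling and 0 without the variance trend, and 24 to 51 when 1 library was left out. The cause of the loss without the trend was not tested. Between 37 and 44 were called with a pseudocount of 10, no filter, TMM, edgeR and DESeq2. With members named -ps and a number counted in it was 43, and without genes sharing over 50% of their words 35 (both chosen after seeing the data). The replicate block, with only numbers 1 and 6 shared between the glucose groups and nothing to show that they pair the cultures (mean correlation 0.0071 over 2 pairs, -0.001 over 14 others), called 1 gene, Rps3, and gave a median log2 fold change of 0.064 in place of 0.13. In that fit the fold changes rest on the libraries numbered 1 and 6 alone, so the 2 medians do not come from the same libraries. In the exosome comparisons the date block (paired by label) changed no call of the 82 genes. At an unadjusted limma p under 0.05 it gave 25 higher and 2 lower in place of 16 and 2 for BMDM-NG-exo against PBS. For BMDM-HG-exo against BMDM-NG-exo it gave 3 and 10 in place of 3 and 6. BMDM-HG-exo against PBS had 8 and 2 in place of 4 and 0. In BMDM-NG-exo against PBS the count of 0 became 1 with a pseudocount of 10 and ran from 0 to 2 when 1 library was left out. The other counts of called genes stayed within 1.5 times the reported one, and the other medians moved by less than 1 SD. With 4 libraries per group, the 95% half-width of a log2 fold change had a median of 0.08 to 0.09 over the 82 genes, and it was wider for those with few reads.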
